A study of Mus musculus with 19 samples.

Results

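The 10 genes described here are the subunits of the transcription factor NF-kB, 2 of its inhibitors and 3 genes that NF-kB itself induces, taken by name from a table of 21086 genes measured in 19 mouse lymphomas. The members are the subunits Nfkb1, Nfkb2, Rel, Rela and Relb, the inhibitors Nfkbia and Nfkbie, and the feedback targets Tnfaip3, Birc3 and Traf1. All 10 were found, and all 10 passed the filter on low values. The tumours arose in Em-Myc mice, which carry a Myc oncogene under an immunoglobulin heavy chain enhancer that is active in B cells, so every group carried this transgene. There were 4 groups. Late Bptf+/Δ tumours (n = 4) had their onset between weeks 30 and 66, and late Bptf+/+ tumours (n = 5) between weeks 28 and 76. Early Bptf+/Δ tumours (n = 4) had it between weeks 8 and 13, and early Bptf+/+ tumours (n = 6) between weeks 9 and 17. Bptf encodes a bromodomain and PHD finger protein of the chromatin remodeller NURF. The Δ allele is deleted and was carried in 1 copy, and which exons it lacks is not given in the sources used here. Libraries are called HET or WT by genotype, followed by the onset class and a number that only names the library. Each library was polyadenylated RNA of 1 lymphoma, and the values are normalised read counts.

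NF-kB subunits bind DNA as dimers. In the classical pathway, IkB proteins such as those encoded by Nfkbia and Nfkbie hold Rela and Rel dimers in the cytoplasm until the IKK kinase marks the IkB protein for degradation. In the alternative pathway, the kinase NIK leads to processing of the Nfkb2 precursor, which then acts with Relb. Nfkb2, Relb, Nfkbia, Nfkbie, Tnfaip3, Birc3 and Traf1 are known targets of NF-kB, so their transcripts are widely used as a readout of the pathway. In B cells the pathway is driven by the B cell receptor, CD40, the BAFF receptor and Toll-like receptors, and it promotes survival. Transcript levels do not measure how much of a subunit is in the nucleus.

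Libraries held between 8297856 and 12497732 recovered reads. Bptf itself averaged 953 ± 511 in HET_late, 2192 ± 342 in WT_late, 1445 ± 123 in HET_early and 2041 ± 317 in WT_early tumours (SD, n = 4, 5, 4 and 6), and every HET library lay below every WT library. Of 19927 genes tested, Bptf was the only 1 whose HET and WT libraries did not overlap (0.00502%). Eef1a1 was the most abundant transcript in 16 libraries. The others were led by Col2a1, a cartilage collagen (HET_early_2, 4.36% of reads), by Bpifa2, a salivary protein (WT_early_6, 5.07%), and by Igha, the immunoglobulin A heavy chain (HET_late_4, 5.55%). HET_early_2 also stood apart from what the model gives, a B cell tumour, although the labels say only lymphoma. The summed level of 15 pan-B markers was 1533 there, against 20931.8 to 60819 in the other 18 libraries, and there Cd79a, at 38.5, was the lowest of all libraries and Ms4a1 was at 23.9. A single marker could be low elsewhere too, and Ms4a1 was lowest in HET_late_3, at 3.1. Most early genotype differences, the early marker sums given by range and the ratios are also given without HET_early_2 or without these 3 libraries.

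Of the members that varied together across the tumours, Relb had no entry in the promoter table and Traf1, described below, is not shown. Promoters are shown for 4 others of that set (Nfkb2, Nfkbia, Nfkbie and Tnfaip3) and for Rela, the member that varied least. Each is the 250 bases before a transcription start in RefSeq (build GRCm38.p6), written 5′ to 3′ on the gene's strand, with matches to the 10-base kappa B motif in capitals. Both strands were searched, and matches that overlap run together as 1 stretch.
Nfkb2 (chr19:46304487-46304736, plus strand): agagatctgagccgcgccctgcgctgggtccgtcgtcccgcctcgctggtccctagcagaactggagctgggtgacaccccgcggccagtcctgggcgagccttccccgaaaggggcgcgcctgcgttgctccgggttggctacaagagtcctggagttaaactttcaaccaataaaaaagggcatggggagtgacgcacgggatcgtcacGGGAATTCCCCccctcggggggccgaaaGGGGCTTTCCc
Nfkbia (chr12:55492648-55492897, minus strand): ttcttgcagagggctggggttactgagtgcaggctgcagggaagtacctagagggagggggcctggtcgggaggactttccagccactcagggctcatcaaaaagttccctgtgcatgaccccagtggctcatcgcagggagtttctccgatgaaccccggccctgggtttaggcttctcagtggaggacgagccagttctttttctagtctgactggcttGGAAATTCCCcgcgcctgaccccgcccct
Nfkbie (chr17:45555450-45555699, plus strand): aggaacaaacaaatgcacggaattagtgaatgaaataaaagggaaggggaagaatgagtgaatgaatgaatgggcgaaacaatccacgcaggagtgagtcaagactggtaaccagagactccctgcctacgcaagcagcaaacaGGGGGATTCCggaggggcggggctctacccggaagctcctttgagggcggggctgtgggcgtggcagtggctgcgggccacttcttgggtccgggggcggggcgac
Tnfaip3 (chr10:19015411-19015660, minus strand): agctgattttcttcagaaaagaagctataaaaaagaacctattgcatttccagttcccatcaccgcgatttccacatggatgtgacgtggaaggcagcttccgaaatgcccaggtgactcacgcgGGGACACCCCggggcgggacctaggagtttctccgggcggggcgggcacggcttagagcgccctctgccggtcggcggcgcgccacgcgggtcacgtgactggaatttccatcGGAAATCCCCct
Rela (chr19:5637291-5637540, plus strand): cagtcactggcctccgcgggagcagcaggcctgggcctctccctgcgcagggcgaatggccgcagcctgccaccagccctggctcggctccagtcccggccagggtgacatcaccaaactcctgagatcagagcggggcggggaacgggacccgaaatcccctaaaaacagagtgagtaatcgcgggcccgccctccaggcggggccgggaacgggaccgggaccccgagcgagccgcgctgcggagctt

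Of the 10 members, 8 had an entry in the promoter table, and 5 of these held the motif at 1 or more of their starts. Of all 32851 promoters listed, 7.25% held it, and of 27025 genes, 8.23% held it at any start. Counted from the start site, the first base of a match stood at -39, -38 and -11 in the Nfkb2 promoter shown, the first 2 of which overlap, at -29 in Nfkbia, at -106 in Nfkbie, and at -125 and -12 in Tnfaip3. Other starts of Nfkb2 held it at -236 and at -225, and Rel held overlapping matches at -92 and -91. The promoters of Rela, Birc3 and Traf1 held no match in this window. A match to the motif is a description of the letters and not evidence of binding.

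Per kilobase of exon, the most abundant of the 10 was Nfkbia and the least abundant was Traf1. The mean over the 19 libraries, in normalised reads per kilobase, was 441 for Nfkbia, 226 for Rela, 116 for Birc3, 105 for Nfkb1, 80.8 for Nfkb2, 66.7 for Nfkbie, 65.1 for Rel, 44.6 for Relb, 29.4 for Tnfaip3 and 11.3 for Traf1. Neighbours in this order overlapped widely between libraries. Birc3, for example, ran from 52.1 to 239 and Nfkb1 from 38.1 to 141. Rela was the most even across tumours. Its normalised read count ran from 449 to 946, a 2.11-fold range, and 5.19% of 2642 genes of like mean level had a lower SD on the log2 scale. Traf1 had a 27.2-fold range, Nfkb2 13.8-fold, Tnfaip3 13.0-fold and Relb 12.8-fold. Of genes of like mean, 76.2% had a lower SD than Traf1, 84.8% than Nfkb2, 81.2% than Tnfaip3 and 72.8% than Relb. The low end of Traf1 rested on few recovered reads (13 in WT_early_3, 12 in WT_late_4 and 14 in WT_late_5). The range was 4.91-fold for Nfkbie, 4.59-fold for Birc3, 3.79-fold for Nfkbia, 3.69-fold for Nfkb1 and 3.26-fold for Rel.

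**Figure D1:**
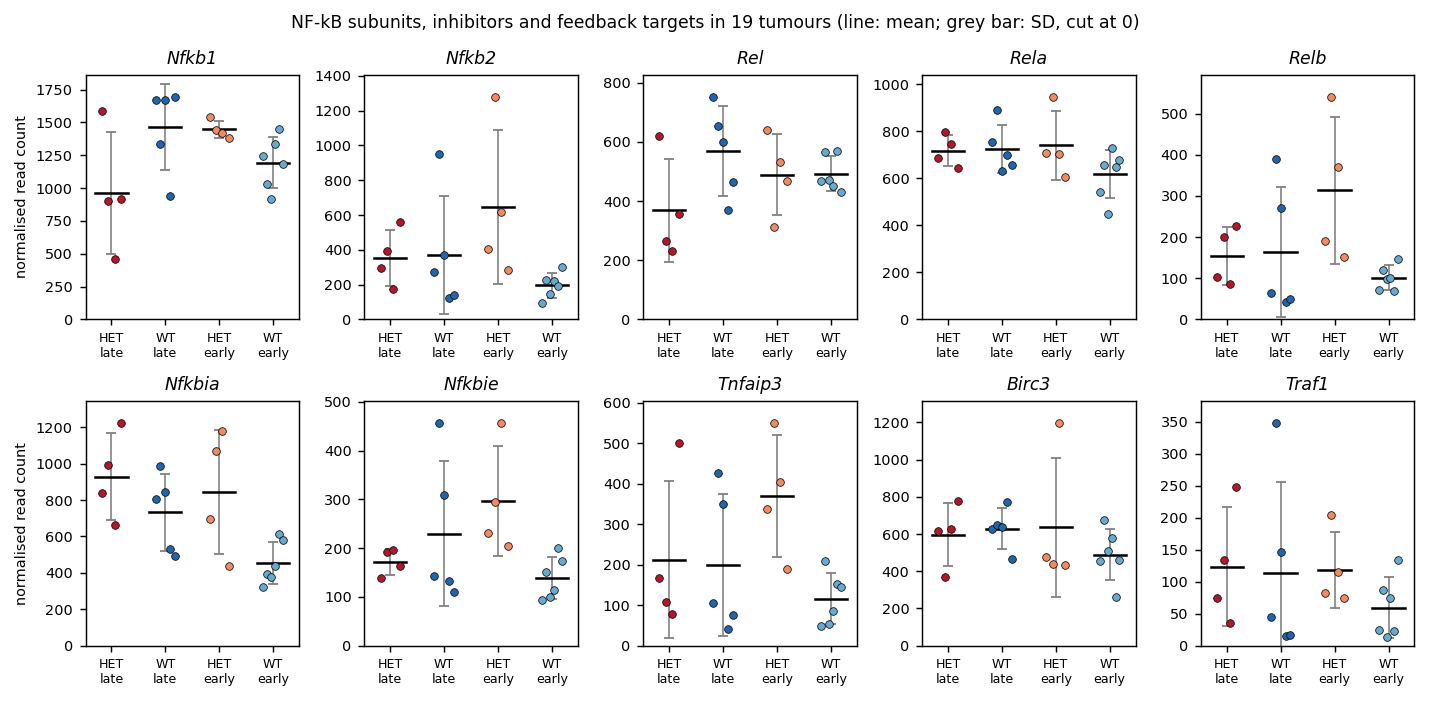
Normalised read counts (vertical axes, starting at 0) of the 10 genes in each of 19 tumours, by group. Points are libraries, black lines are group means and grey bars are the SD, cut at 0. The HET_early libraries of Relb (152 to 541) and of Nfkbie (204 to 456) lie above all WT_early libraries.

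In early tumours, the comparison of genotypes asks whether loss of 1 Bptf allele goes with another level of these genes. The estimates for the alternative pathway subunits, both inhibitors, Tnfaip3 and Traf1 lay above 0 by 0.83 to 1.76 on the log2 scale, while those for Nfkb1, Rel, Rela and Birc3 lay between -0.05 and 0.29. No member passed limma's test after adjustment over all genes, nor did any other gene (0 of 19927, 0.0%). At an unadjusted p under 0.05, 5 of 10 members were higher and none was lower, against 7.39% of all genes tested that were higher and 4.12% that were lower at that threshold. These 5 (Nfkb2, Relb, Nfkbia, Nfkbie and Tnfaip3) varied together across the same libraries, so they are not independent counts. For this and every other count, the members were chosen with earlier results of these data known. The estimated difference was above 0 for 9 of 10 members, against 55.5% of all genes, and its median was 0.95 over the members and 0.09 over all genes tested, on the log2(value + 1) scale. Without HET_early_2 the difference was above 0 for 10 of 10, with a median of 0.85 and 4 members at an unadjusted p under 0.05. In bulk RNA, fewer cells of a type and less RNA per cell cannot be told apart.

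Nfkb2 (GRCm38 chromosome 19, 46304320 to 46312385, plus strand) encodes p100, the precursor of p52. Its normalised read count was 402, 1280.1, 615 and 285 in HET_early 1 to 4, against a lowest, median and highest of 93.1, 206 and 303 in WT_early. Only HET_early_4 lay within the WT_early range. The log2 difference was 1.57 ± 0.52 (SE; limma, p = 0.00702, adjusted p = 0.402), and an exact two-sided permutation test gave p = 0.00952. Without HET_early_2, which was the highest of all 19 libraries, it was 1.16.

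Relb (chromosome 7, 19606217 to 19629438, minus strand), the partner of p52, showed the same order of libraries. It was at 191, 541, 369.8 and 152 in HET_early 1 to 4, against 69.4, 100 and 147 (lowest, median, highest) in WT_early. The groups did not overlap, as was the case for 1.5% of all genes with the HET_early libraries higher. The log2 difference was 1.48 ± 0.56 (SE; limma, p = 0.0161, adjusted p = 0.402), the exact permutation p was 0.00476, the smallest that 4 against 6 libraries allow, and the difference was 1.16 without HET_early_2.

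Nfkbia and Nfkbie encode IkB alpha and IkB epsilon, inhibitors that NF-kB induces and that return it to the cytoplasm. Nfkbie (chromosome 17, 45555703 to 45563169, plus strand) was at 231, 295, 456 and 204 in HET_early 1 to 4, against 93.1, 133 and 200.3 in WT_early (lowest, median, highest). Here too the groups did not overlap, though by a small margin. On the log2 scale they differed by 1.08 ± 0.37 (SE; limma, p = 0.00829, adjusted p = 0.402; exact permutation p = 0.00952), and 1.06 without HET_early_2. Nfkbia (chromosome 12, 55489410 to 55492647, minus strand) was at 696, 1071, 1178 and 439.5 in HET_early 1 to 4, against 323, 417 and 614 in WT_early. HET_early_4 lay within the WT_early range and the other HET_early libraries lay above it. HET_early exceeded WT_early by 0.83 ± 0.29 on the log2 scale (SE; limma, p = 0.00892, adjusted p = 0.402; exact permutation p = 0.0333), and by 0.69 without HET_early_2.

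Among the feedback targets, Tnfaip3 (chromosome 10, 19000910 to 19015657, minus strand) encodes A20, a ubiquitin-editing enzyme that shuts off IKK activation. It was at 339, 550.3, 404 and 189 in HET_early 1 to 4, against 49.6, 116 and 208 in WT_early (lowest, median, highest). Only HET_early_4 lay within the WT_early range. The log2 difference, 1.76 ± 0.63 (SE; limma, p = 0.0118, adjusted p = 0.402; exact permutation p = 0.019), was the largest of the 10 members, and it was 1.54 without HET_early_2.

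Traf1 (chromosome 2, 34941750 to 34961772, minus strand), an adaptor of tumour necrosis factor receptors, was at 81.9, 203, 114 and 74.9 in HET_early 1 to 4, against 12.8, 49.6 and 134 in WT_early. The ranges overlapped, and the log2 difference was 1.31 ± 0.82 (SE; limma, adjusted p = 0.506; exact permutation p = 0.1) and 1.02 without HET_early_2. Birc3 (chromosome 9, 7848699 to 7873186, minus strand), the ubiquitin ligase cIAP2, was at 475, 439, 1196 and 432 in HET_early 1 to 4, against 261, 485 and 673 in WT_early. Its difference of 0.29 ± 0.30 (SE; exact permutation p = 0.505) rested on HET_early_3 and was -0.07 without that library.

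The remaining subunits lay closer together. Rela (chromosome 19, 5637483 to 5648130, plus strand), which carries the main activation domain of the classical pathway, averaged 739.9 ± 145 in HET_early and 618 ± 103 in WT_early tumours (SD, n = 4 and 6; log2 difference 0.26, exact permutation p = 0.195). Without HET_early_2, the highest of all libraries for Rela, the difference was 0.13. Rel (chromosome 11, 23736847 to 23770970, minus strand), the subunit most restricted to lymphoid cells, averaged 489 ± 137 in HET_early and 493 ± 59.6 in WT_early tumours, a log2 difference of -0.05 (SD, n = 4 and 6; exact permutation p = 0.8) that was 0.15 without HET_early_2. Nfkb1 (chromosome 3, 135584655 to 135691547, minus strand), which encodes the p50 precursor, was at 1541, 1439.6, 1424 and 1383 in HET_early 1 to 4, against 917, 1215 and 1453 in WT_early, a log2 difference of 0.29 (exact permutation p = 0.0571).

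Markers of other cells and of stress moved with this comparison. All 15 endothelial markers were higher in HET_early than in WT_early tumours, with a summed level of 4888 to 12685 against 2402 to 5465. All 17 immediate early genes were higher as well, at a sum of 3381 to 37220.3 against 2676 to 4435, where HET_early_2 was the highest. Without the 3 libraries led by another transcript, the endothelial sum was 4888 to 6626 in HET_early against 2402 to 5465 in WT_early, and the immediate early sum 3381 to 5699.8 against 2676 to 4435. All 15 pan-B markers had a mean difference below 0, at a sum of 1533 to 56859 in HET_early against 33484 to 60819 in WT_early tumours. Without the 3 libraries that sum was 39343 to 56859 in HET_early, within the 33484 to 60819 of WT_early.

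Of 20 macrophage and dendritic markers, 16 had a mean difference above 0 (11774 to 37771 in HET_early against 6776 to 14967 in WT_early), and without the 3 libraries the sum was 11774 to 18129 against 6776 to 14967. Of 20 T cell markers 18 did (1361 to 2888 against 745 to 2729.5, and 2426 to 2888 against 745 to 2319 without the 3 libraries). Of 14 stromal markers 13 did, at a sum of 6263 to 1112794 in HET_early against 9078 to 34983 in WT_early, where HET_early_2 was the highest. Without the 3 libraries the stromal sum was 6263 to 18512 in HET_early against 9078 to 34983 in WT_early, so that the order of the upper ends turned round. All 9 neutrophil markers tested had a difference above 0 (median 0.87), and 12 of 14 mature B markers did (median 0.49). Of 17 pro-B and pre-B markers 10 did (median 0.71). Their sum was 4405 to 27255 in HET_early (median 21208) against 10530 to 31641 in WT_early (median 11149), where HET_early_2 was the lowest. Without the 3 libraries their sum was 20490 to 27255 in HET_early against 10855.5 to 31641 in WT_early. The part of the neutrophil markers in the members' differences was not tested.

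With a score of these non-tumour lists (T cell, macrophage, stromal and endothelial) as a covariate, the early difference was 0.54 for Nfkb2, 0.72 for Relb, 0.40 for Nfkbia, 0.81 for Nfkbie, 0.86 for Tnfaip3 and -0.10 for Traf1, and no member was below an unadjusted p of 0.05. With the immediate early score instead, it was 0.63 for Nfkb2, 0.76 for Relb, 0.37 for Nfkbia, 0.77 for Nfkbie and 0.99 for Tnfaip3, again with no member below that p. With a score of the pan-B markers it was 1.25 for Nfkb2, 1.35 for Relb, 0.72 for Nfkbia, 1.12 for Nfkbie and 1.56 for Tnfaip3. Leaving out the 3 libraries led by another transcript gave 1.30 for Nfkb2, 1.28 for Relb, 0.76 for Nfkbia, 1.13 for Nfkbie and 1.64 for Tnfaip3. HET_early_2 had the highest non-tumour score of the 19 libraries (1.36). It also had the highest immediate early score (2.81, against at most 0.45 elsewhere) and the lowest pan-B score (-2.63, against at least -0.59 elsewhere). The fits with these scores therefore lean on this library.

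The authors' deposited table, whose test is not named in the sources used here, gave adjusted p-values under 0.05 to 4 members in early tumours. These were Nfkb2 (log2 fold change 1.69, adjusted p = 0.0205), Relb (1.61, adjusted p = 0.0106), Nfkbie (1.09, adjusted p = 0.0486) and Tnfaip3 (1.66, adjusted p = 0.0320). Of 14526 genes with an adjusted p in the authors' deposited table, 1.65% were higher at that threshold. On the recovered reads, edgeR gave these 4 members adjusted p-values between 0.0976 and 0.164 and DESeq2 between 0.0557 and 0.121. Neither called a member, while DESeq2 called 400 genes (2.67%) and edgeR 0, and the sizes of the differences were close (Nfkb2 1.71 with both).

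**Figure D2:**
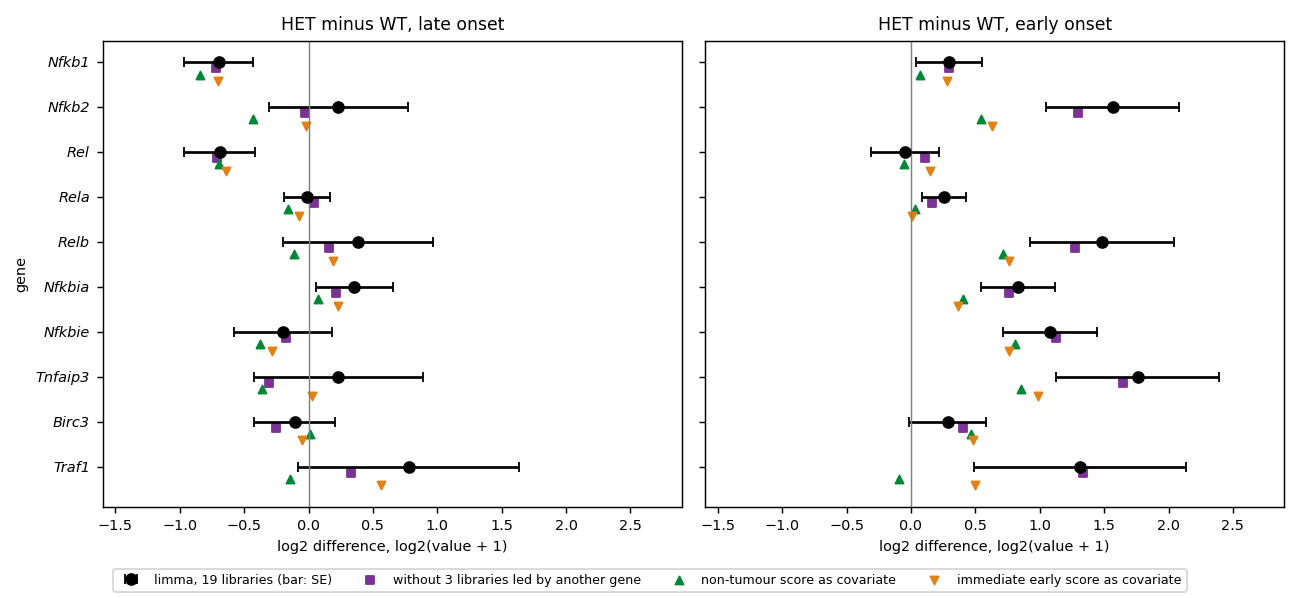
Log2 difference between HET and WT tumours for each gene in late (left) and early (right) tumours, with its SE (black), and under 3 other fits. In early tumours the black points of Nfkb2, Relb, Nfkbie and Tnfaip3 lie between 1.08 and 1.76, and those with a covariate score between 0.54 and 0.99.

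In late tumours, the same comparison gave smaller estimates for the alternative pathway and feedback genes. Nfkb1 and Rel were the members with the smallest p-values, both with an estimate below 0. No gene passed limma's test after adjustment (0 of 19927, 0.0%; edgeR 0, DESeq2 35, none of them a member). At an unadjusted p under 0.05 these 2 of 10 members were lower, against 3.46% of all genes lower and 6.13% in either direction, and the members divided into 5 above 0 and 5 below, where 51.6% of all genes were above 0. Nfkb1 and Rel varied together across the tumours (r = 0.75), so they are not independent counts either. No member's groups were without overlap.

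Nfkb1 was at 1588, 899, 459 and 914 in HET_late 1 to 4, against 1673, 1336, 1674, 941 and 1696 in WT_late 1 to 5. HET_late_1 lay among the WT_late libraries, and the other HET_late libraries lay below all of them. The log2 difference was -0.70 ± 0.27 (SE; limma, p = 0.0166, adjusted p = 0.796; exact permutation p = 0.0794). It was -0.98 without HET_late_1 and -0.39 without HET_late_3.

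Rel was at 618, 266, 230.5 and 357 in HET_late 1 to 4, against 752, 654, 600.0, 371 and 466 in WT_late 1 to 5. As for Nfkb1, HET_late_1 lay inside the WT_late range and the other HET_late libraries lay below it. The log2 difference was -0.69 ± 0.28 (SE; limma, p = 0.0215, adjusted p = 0.796; exact permutation p = 0.0714), and it ran from -0.98 without HET_late_1 to -0.50 without HET_late_3. With the non-tumour score as a covariate the late differences were -0.84 for Nfkb1 and -0.69 for Rel.

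Markers of B cell stage and of other cells moved with the late comparison too. All 17 pro-B and pre-B markers had a difference below 0 (median -1.38, 4 at an unadjusted p under 0.05), at a sum of 1051 to 10554 in HET_late against 2483 to 22655 in WT_late tumours. With a score of them as a covariate the late differences were -0.69 for Nfkb1 and -0.65 for Rel. Of 9 neutrophil markers tested, 7 had a difference below 0 (median -1.67), and of 20 macrophage and dendritic markers 16 had one above 0 (median 0.99). The part of the neutrophil markers was not tested.

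The late WT tumours spread widely in the alternative pathway genes. Nfkb2 was at 294, 392, 177 and 559 in HET_late 1 to 4, against 270.2, 949.9, 369.9, 123 and 141 in WT_late 1 to 5 (log2 difference 0.23 ± 0.54 (SE), exact permutation p = 0.762). Relb was at 104, 200.2, 85.0 and 226 in HET_late 1 to 4, against 63.6, 390.4, 271, 42.3 and 50.6 in WT_late 1 to 5 (log2 difference 0.39 ± 0.58 (SE), exact permutation p = 0.627). WT_late_2 and WT_late_3 were above every HET_late library for Relb, and the other 3 WT_late libraries were below all of them.

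The inhibitors and feedback targets were likewise spread. Nfkbie was at 139, 192, 197 and 163 in HET_late 1 to 4, against 144, 457, 308, 132 and 109 in WT_late 1 to 5 (log2 difference -0.20 ± 0.38 (SE), exact permutation p = 0.667). Nfkbia was at 837, 991, 662 and 1222 in HET_late 1 to 4, against 806, 989, 843, 532 and 494 in WT_late 1 to 5 (log2 difference 0.36 ± 0.30 (SE), exact permutation p = 0.254). Tnfaip3 had its highest HET_late value in HET_late_4 (499.9) and its lowest in HET_late_3 (77.9), against a highest of 426 in WT_late_2 and a lowest of 42.3 in WT_late_4. Traf1 ran from 36.2 to 248 in HET_late against 14.5 to 348 in WT_late tumours, Birc3 from 367 to 777 against 467 to 769.7, and Rela from 643 to 795 against 630.2 to 889.

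Averaged over onset, 8 of 10 members had a genotype difference above 0 (55.8% of all genes), with a median of 0.52 against 0.06 over all genes. None passed limma's test, in which no gene was called (0.0%), and 4 members were higher at an unadjusted p under 0.05, against 5.16% of all genes higher, 4.81% lower and 9.98% in either direction. These 4 varied together across the tumours and are not independent counts. Log2 differences were 0.59 ± 0.21 (SE) for Nfkbia, 0.90 ± 0.37 for Nfkb2, 0.93 ± 0.40 for Relb and 0.997 ± 0.46 for Tnfaip3, each with an adjusted p of 0.493 in limma's test. Exact permutation tests gave p = 0.0135 for Nfkbia, 0.0519 for Nfkb2, 0.0557 for Relb and 0.0758 for Tnfaip3. Without HET_early_2, 1 member was below an unadjusted p of 0.05, and with the non-tumour score as a covariate none was.

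The interaction of genotype and onset asks whether the genotype difference in late tumours departs from that in early tumours. All 10 members had a smaller or more negative genotype difference in late tumours, where 46.1% of all genes had an interaction above 0. The median was -0.82 over the members and -0.07 over all genes. None passed limma's test (0 of 19927, 0.0%). At an unadjusted p under 0.05, 2 members were lower, against 4.41% of all genes lower and 6.94% in either direction. These were Nfkb1 (-0.99 ± 0.37, SE) and Nfkbie (-1.28 ± 0.53, SE), each with a limma adjusted p = 0.706. The early and the late genotype differences are therefore not shown to differ for any member.

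Onset was compared within each genotype. In Bptf+/Δ tumours, 8 of 10 members had a difference below 0 between late and early tumours, where 43.9% of all genes had a difference above 0, with a median of -0.59 against -0.12. Leaving out HET_early_2 moved the estimate from -0.75 to -0.34 for Nfkb2, from -0.96 to -0.64 for Relb and from -0.03 to 0.095 for Rela. It moved Rel further below 0, since HET_early_2 was the lowest HET_early library for Rel. Nfkbie was at 139 to 197 in HET_late against 204 to 456 in HET_early tumours, without overlap, as were 4.32% of all genes with the late tumours lower. Its log2 difference was -0.72 ± 0.40 (SE; limma, adjusted p = 0.327; exact permutation p = 0.0286). Nfkb1 was at 459 to 1588 in HET_late against 1383 to 1541 in HET_early tumours. HET_late_1 lay above all HET_early libraries and the other HET_late libraries lay below all of them (log2 difference -0.72 ± 0.28, SE; limma, adjusted p = 0.18; exact permutation p = 0.143). It was the 1 member at an unadjusted limma p under 0.05, against 11.1% of all genes lower and 8.42% higher. The comparison within Bptf+/Δ tumours used the same HET_early libraries as the genotype comparison in early tumours.

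Several marker lists moved with onset in Bptf+/Δ tumours. All 15 endothelial markers had a difference below 0 (median -1.35, 8 at an unadjusted p under 0.05), as did 16 of 17 pro-B and pre-B markers (median -2.73, 8 at that p) and all 9 neutrophil markers tested (median -2.13). The summed pro-B and pre-B level was 1051 to 10554 in HET_late against 4405 to 27255 in HET_early tumours, where HET_early_2 was the lowest. Without the 3 libraries led by another transcript it was 1051 to 10554 in HET_late against 20490 to 27255 in HET_early, without overlap. With the pro-B and pre-B score as a covariate 9 of 10 members were below 0, with a median of -0.61 and none at an unadjusted p under 0.05. With the non-tumour score 7 were below 0, with a median of -0.50 and 1 at that p. The part of the neutrophil markers was not tested.

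In Bptf+/+ tumours, all 10 members had a difference above 0 between late and early tumours, where 48.4% of all genes did, with a median of 0.39 against -0.02. With the mature B score as a covariate 4 of 10 were above 0, with a median of -0.04, and without WT_late_2 it was 8 of 10, with a median of 0.15. None passed limma's test (0 of 19927, 0.0%). Nfkbia was at 806, 989, 843, 532 and 494 in WT_late 1 to 5, against 323, 417 and 614 (lowest, median, highest) in WT_early, with WT_late_1, WT_late_2 and WT_late_3 above all WT_early libraries. Its log2 difference of 0.68 ± 0.27 (SE; limma, p = 0.0208, adjusted p = 0.961; exact permutation p = 0.026) was the only 1 of the members below an unadjusted p of 0.05, against 2.41% of all genes higher, 2.44% lower and 4.85% in either direction. Averaged over genotype, limma called 87 genes (0.437%; 49 higher, 0.246%, and 38 lower, 0.191%) and no member, and the members divided into 4 above 0 and 6 below (44.0% of all genes above 0). Nfkbia had the smallest p there as well (0.44 ± 0.21, SE; limma, unadjusted p = 0.0471, adjusted p = 0.258; exact permutation p = 0.0624), against 8.8% of all genes that were higher at an unadjusted p under 0.05. The mature B list, which includes MHC class II genes such as H2-Aa, moved with onset. Its sum does not measure B cells alone, since it was 22774 in HET_early_2, where the pan-B sum was 1533. The summed level of 14 mature B markers ran from 11525 to 86621 in HET_late and 21348 to 92802 in WT_late, against 15533 to 32907 in HET_early and 7126 to 23387 in WT_early tumours. With the mature B score as a covariate, the onset difference of Nfkbia was 0.29 averaged over genotype and 0.45 in Bptf+/+ tumours.

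The subunits can also be compared within a library, where the scaling of libraries cancels. Per kilobase of exon, Rela held the largest share of the 5 subunits in every library, at 34.7% to 65.2%. Nfkb1 took 10.2% to 30.6% and Rel 4.73% to 18.4%. Nfkb2 took 5.32% to 31.4% and Relb 2.77% to 15.7%. The median share of Nfkb2 was 14.5% in HET_late and 10.5% in WT_late tumours, and 17.9% in HET_early and 9.68% in WT_early tumours. The median share of Rel was 8.8% in HET_late and 13.6% in WT_late tumours, and 12.1% in HET_early and 16.4% in WT_early tumours.

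**Figure D3:**
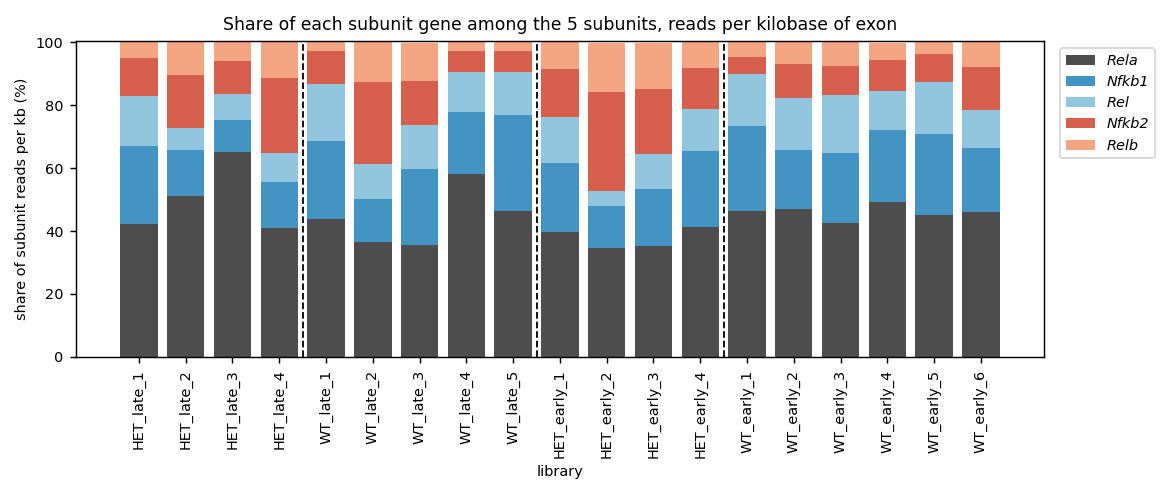
Share of each subunit gene in the summed reads per kilobase of exon of the 5 subunits (vertical axis, percent) in each of 19 libraries, with dashed lines between groups. Rela holds 34.7% to 65.2%, and the share of Nfkb2 is highest in HET_early_2 at 31.4%.

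The log2 ratio of Nfkb2 to Nfkb1, the precursors of p52 and p50, was higher on average in Bptf+/Δ tumours, a result that depended on single libraries. It averaged -1.43 ± 0.73 in HET_late, -2.36 ± 1.16 in WT_late, -1.40 ± 0.93 in HET_early and -2.68 ± 0.62 in WT_early tumours (SD, n = 4, 5, 4 and 6). All HET libraries against all WT libraries differed by 1.12 (exact two-sided permutation test, p = 0.0111, adjusted p = 0.0445 over 4 ratio tests). Within early tumours the difference was 1.28 (exact permutation p = 0.0238), and within late tumours 0.93 (p = 0.206, exact permutation test). The adjusted p stayed under 0.05 on leaving out HET_late_1, WT_late_2, HET_early_1, HET_early_4 or WT_early_6, and not on leaving out any of the other 14 libraries, where the difference was 0.94 to 1.16. Without the 3 libraries led by another transcript it was 0.85 (exact permutation, adjusted p = 0.192). A ratio cancels the scaling of libraries but not their cell composition. The ratios were not fitted with the non-tumour score, so the part of other cells was not tested.

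The log2 ratio of Rel to Rela averaged -1.07 ± 0.72 in HET_late, -0.38 ± 0.37 in WT_late, -0.62 ± 0.66 in HET_early and -0.32 ± 0.30 in WT_early tumours (SD, n = 4, 5, 4 and 6). The genotype difference of -0.50 did not pass after adjustment (exact permutation p = 0.0477, adjusted p = 0.0954), and it did so without HET_late_1 (-0.60) or HET_early_1 (-0.60). It was -0.31 within early tumours (p = 0.395) and -0.68 within late tumours (p = 0.111, both exact permutation tests). Between late and early tumours neither ratio passed, with a difference of 0.22 for Nfkb2 to Nfkb1 (exact permutation p = 0.644) and -0.25 for Rel to Rela (exact permutation p = 0.335).

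Across the 19 tumours the members fell into sets that varied together. Of 45 pairs, 41 had a Pearson r above 0 and 16 passed for both Pearson's r and Spearman's rho (permutation tests, adjusted over the 45 pairs). Of these 16, 15 are all the pairs among Nfkb2, Relb, Nfkbia, Nfkbie, Tnfaip3 and Traf1, with r from 0.65 to 0.92. This grouping was seen in the same values, so no test of it is given. The other pair was Nfkb1 and Rel (r = 0.75, permutation p = 0.00023, adjusted p = 0.000941; rho = 0.64, adjusted p = 0.00939; r = 0.52 without the 2 libraries farthest from the median, HET_late_3 and HET_late_2). The lower of these r were not particular to the members. Among 9450 genes with a mean of at least 100, Rela (r = 0.66) ranked 434 in likeness to Nfkb2. Relb (r = 0.65) ranked 249 in likeness to Nfkbia. The share of all gene pairs that would pass was not computed.

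Nfkb2 and Relb, the 2 alternative pathway subunits, had the highest correlation. Pearson's r was 0.92 and rho 0.92 (permutation p = 1e-05 for each, the smallest that the resamples can give; adjusted p = 9e-05), 0.87 without HET_early_2 and WT_late_2, 0.85 within the 11 WT and 0.96 within the 8 HET tumours. Nfkb2 and Tnfaip3 followed at r = 0.89 and rho = 0.90 (permutation p = 1e-05, adjusted p = 9e-05 for each), with 0.88 in WT and 0.84 in HET tumours. For Nfkb2 and Nfkbia, r was 0.81 and rho 0.82 (permutation p = 5e-05 and 7e-05). Birc3 passed with no other member (r = -0.12 to 0.31). Rela passed for r alone with Nfkb2 (0.66), Nfkbia (0.63), Traf1 (0.57) and Nfkbie (0.56), and not for rho.

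Over the 15 pairs, r ran from 0.51 to 0.90 within WT tumours and from 0.16 to 0.96 within HET tumours, and without the 2 farthest libraries it ran from 0.57 to 0.88. Tests within genotypes have fewer tumours, and 12 of the 45 pairs passed for r in WT and 1 in HET tumours. The libraries in which these 6 genes were high came from both genotypes and both onsets. WT_late_2 (onset at 76 weeks) and HET_early_2 (13 weeks) were among the 5 highest libraries for all 6 genes, HET_early_3 and HET_late_4 for 5, and WT_late_3 for 4. By median rank over the 6 genes the lowest were WT_early_1, WT_early_3, WT_late_4 and WT_late_5, all Bptf+/+. Their non-tumour scores (-0.90, -0.71, -0.65 and -0.43 in that order) were the lowest of the 19 libraries. Among the high libraries the score was 1.36 in HET_early_2, 0.58 in HET_late_4, 0.24 in WT_late_2, -0.04 in HET_early_3 and -0.25 in WT_late_3. The part of other cells in this shared variation was not tested.

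**Figure D4:**
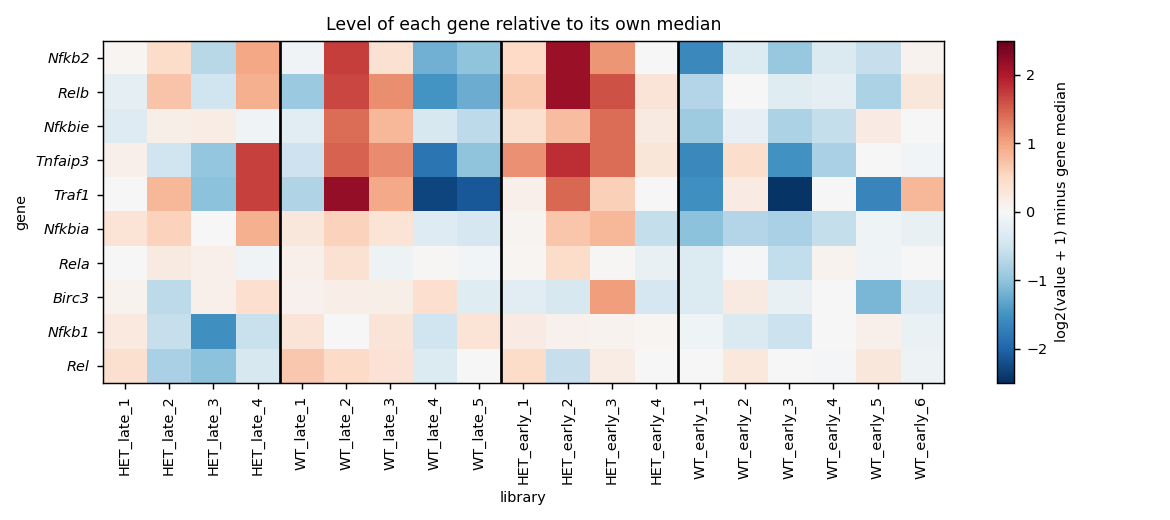
Log2(value + 1) of each gene minus its median over the 19 libraries (colour, capped at -2.5 and 2.5), with libraries in columns and groups divided by black lines. The upper 6 genes are high together in WT_late_2, WT_late_3, HET_early_2 and HET_early_3 and low together in WT_late_4, WT_late_5 and WT_early_1.

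**Figure D5:**
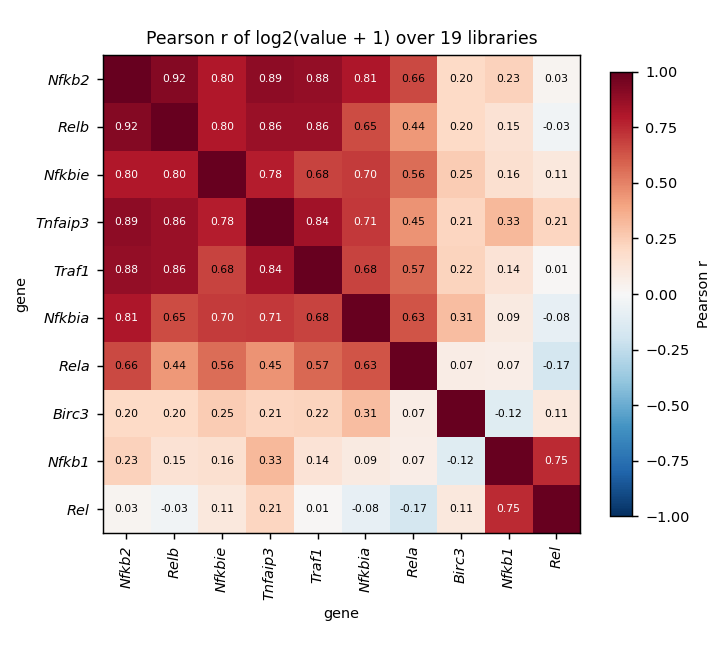
Pearson r of log2(value + 1) over 19 libraries for each pair of genes (colour and number). The 15 pairs among the upper 6 genes have r between 0.65 and 0.92, and Birc3 has r between -0.12 and 0.31 with every other gene.

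Outside the members, the genes most like Nfkb2 over the 19 tumours, among 9450 genes with a mean of at least 100, were Cpq (Pearson r = 0.96), Ms4a6b (0.93), Cd82 (0.92), Vopp1 (0.90) and Cp (0.90). Cpq encodes a secreted peptidase, Ms4a6b a membrane protein, Cd82 a tetraspanin and Cp the copper carrier ceruloplasmin. Relb ranked 4 and Tnfaip3 ranked 7 in the same order. Those most like Nfkbia were Vcp, a protein-unfolding ATPase (0.83), Mapkapk2, a kinase downstream of p38 (0.82), Ddit4, an inhibitor of mTORC1 signalling (0.82), Nfil3, a transcription factor (0.81), and Capns1, a calpain subunit (0.81), and Nfkb2 ranked 4. HET_early_2 held the highest value of 4 of the genes most like Nfkb2 and of 4 of those most like Nfkbia, and without the 3 libraries led by another transcript the lowest of these r was 0.78. These r were ranked over all genes and are given as descriptions.

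Other genes of the pathway were read from lists of IKK components and adaptors, further inhibitors, receptors and ligands, and further targets. The lists were chosen with earlier results known, and their counts for genotype in early tumours are set beside the 55.5% of all genes above 0 and, at an unadjusted p under 0.05, the 7.39% higher and 4.12% lower. Of 25 IKK and adaptor genes, 8 had a difference above 0, with a median of -0.17, and 2 were below an unadjusted p of 0.05, both lower in HET_early. Of 20 further IkB family genes and negative regulators, 13 had a difference above 0 (median 0.21, 2 higher at an unadjusted p under 0.05). Of 23 receptors and ligands 18 did (median 0.53, 3 higher), and of 40 further targets 29 did (median 0.58, 4 higher and 1 lower). No gene of these lists was called by limma in this comparison.

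Tradd, the adaptor of the tumour necrosis factor receptor, was at 181 ± 33.3 in HET_early and 272 ± 59.8 in WT_early tumours (SD, n = 4 and 6; log2 difference -0.57 ± 0.25, SE; limma adjusted p = 0.418; -0.44 without HET_early_2). Among inhibitors, Rnf11, a partner of A20, was at 226 to 1357 in HET_early against 133 to 231 in WT_early tumours (log2 difference 1.06 ± 0.40, SE), and Tank was at 222 to 545 against 162 to 206 (0.76 ± 0.30, SE), both with a limma adjusted p = 0.402. HET_early_2 was the highest library for both, and without it the differences were 0.47 for Rnf11, whose other HET_early values were 226 to 317, and 0.495 for Tank. Among targets, Csf1, which encodes the macrophage growth factor M-CSF, was at 349 to 1967 in HET_early against 126 to 232 in WT_early tumours without overlap (1.80 ± 0.52, SE; limma adjusted p = 0.402), and the difference was 1.22 without HET_early_2. Gadd45b, a stress-induced gene, was at 49.4 to 528 in HET_early against 236 to 599.5 in WT_early tumours (-1.33 ± 0.57, SE; limma adjusted p = 0.417; -1.94 without HET_early_2). Tnfrsf9, which encodes the receptor 4-1BB, ran from 24.4 to 804 in HET_early against 16.5 to 99.0 in WT_early tumours (1.92 ± 0.85, SE; limma adjusted p = 0.421). Without HET_early_2, the highest, it ran from 24.4 to 113 and the difference was 0.98. Other receptors and ligands moved in both directions on leaving out HET_early_2. The difference went from 1.93 to 2.78 for Ltb and from 1.53 to 1.84 for Tnf. It went from 2.32 to 1.24 for Il1b and from 1.11 to 0.27 for Ltbr.

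In late tumours, 32 of 40 further targets had a genotype difference above 0 (median 0.72 against 0.02 over all genes), 5 of them at an unadjusted p under 0.05 and none lower (2.67% of all genes higher). Ccl4 and Ccl5 are chemokines made by T cells and natural killer cells among others. Ccl4 was at 27.1 to 197 in HET_late against 7.1 to 28.6 in WT_late tumours (log2 difference 2.43 ± 0.69, SE), and Ccl5 at 20.5 to 2116 against 9.4 to 225 (3.04 ± 1.09, SE). Irf1, an interferon-induced transcription factor, was at 514 to 991 in HET_late against 201 to 683 in WT_late tumours (1.05 ± 0.35, SE), and Pim1, a survival kinase, at 554 to 1121 against 228 to 1362 (1.11 ± 0.41, SE). The limma adjusted p was 0.796 for each of these 4 genes. Of 20 T cell markers, 17 had a difference above 0 (median 1.64, 6 at an unadjusted p under 0.05), at a sum of 4024.5 to 9627 in HET_late against 1235 to 9423 in WT_late tumours. Of 20 macrophage and dendritic markers 16 had a difference above 0 (median 0.99), as did 12 of 15 germinal centre and plasma cell markers (median 1.05). The part of these markers in the differences of the further targets was not tested.

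Averaged over genotype, several genes of these lists were below an unadjusted p of 0.05 for onset, and none was called. Of 25 IKK and adaptor genes, 5 were higher and 3 lower in late tumours, and of 20 further inhibitors, 6 were higher and 1 lower, against 8.8% of all genes higher and 10.2% lower. Of 40 further targets, 10 were higher and 0 lower, and of 23 receptors and ligands, 1 was higher and 0 lower. Otulin, which removes linear ubiquitin chains, was at 527 to 1798 in HET_late and 757 to 1816 in WT_late, against 323 to 734 in HET_early and 627 to 729.7 in WT_early tumours (log2 difference 0.81 ± 0.22, SE; limma adjusted p = 0.0811). Tnfrsf13b, the receptor TACI of mature B cells, was higher in the late groups on average (2028 ± 932 in HET_late and 1559 ± 1009 in WT_late, against 655 ± 418 in HET_early and 894 ± 227 in WT_early; SD, n = 4, 5, 4 and 6; limma adjusted p = 0.129). The lowest value of Tnfrsf13b over all libraries, 51.8, was that of HET_early_2.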

How the data were processed

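Bulk polyadenylated RNA of 19 lymphomas was measured. Per the labels' protocols, libraries followed the TruSeq guide with 10 or, in a second protocol version, 8 amplification cycles and were sequenced on a Genome Analyzer IIx. The version of each library is not stated in these sources, and so batches could not be compared. The submitters' processing notes list FastQC (0.11.5), TopHat2 (2.1.1), Cufflinks (2.2.1), Cuffnorm, Cuffdiff and the builds GRCm38 and mm10. Not given in the sources used here are the tool, annotation and strand setting behind the table.

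The authors deposited a normalised read count (a signal) per gene and library. All values (100%) were whole multiples of 1 read within 0.01 reads, and size factors recomputed with DESeq2 differed from those the table implies by at most 5.28e-10 of their value, so whole reads were recovered. The authors also deposited log2 fold changes and adjusted p-values of 5 comparisons. The lowest chi-square per gene among 171 pairs of libraries was 18.8, so no pair agreed within sampling noise. The labels name each tumour but do not state that each came from its own mouse, so p-values measure the spread between these samples. Depth gives counting error only, since amplified reads carry no molecular identifiers.

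The main test was limma 3.58.1 (trend, empirical Bayes; R 4.3.3) on log2(value + 1), which understates changes of low genes, over the 19927 genes that reached a value of 1 in 4 or more libraries, with 4 group means fitted together and Benjamini-Hochberg adjustment over all of them (threshold 0.05). The design foresaw normalised expression and was kept. Alternatives were edgeR 4.0.16 and DESeq2 1.42.0 on recovered reads and single-member exact permutation tests. Further alternatives were another pseudocount, filter, scaling, weights and covariates (mean z scores of marker lists), and leaving out libraries. Scores of mature B, pro-B and pre-B, and immediate early genes were added after seeing the data. The tests were tested on simulated data. Correlations used 100000 resamples. NumPy 2.4.6, pandas 2.3.3, SciPy 1.17.1 and matplotlib 3.10.9 were used. Exon lengths and coordinates came from GENCODE (GRCm38).

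The members and lists were chosen with earlier results of these data known. Genes named outside the members were up to 4 of each list described with the smallest p and a group mean of at least 20, and the 5 most like Nfkb2 and Nfkbia, passing over predicted genes. Not every gene the rule took is described.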

Additional observations from a re-analysis of the deposited data

Results flagged for a closer look

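Among 48 sets of values (a member, Bptf or Myc in a group of 4 to 6 tumours) that were checked for a single library far from the rest, Birc3 in HET_early was the 1 that stood out. HET_early_3 was at 1196 normalised reads, against 475 for the nearest of the other HET_early libraries, a gap of 0.944 of the group's range (n = 4). Chance gives such a gap in a share of about 0.05 of groups. HET_early_3 was also among the highest libraries for Nfkb2, Relb, Nfkbia, Nfkbie and Tnfaip3.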

How the results depend on the processing

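No paired analysis was possible because the labels give no replicate numbers and the numbers used here only name libraries. Limma called 0 members in all 7 comparisons, as did each alternative adjusted over all genes. The lowest adjusted p was 0.0556 (Nfkb1, late against early in Bptf+/Δ, without HET_late_1). By unadjusted exact permutation tests, the count under 0.05 was 1 of 10 members for genotype averaged over onset (10.7% of all genes in either direction), 5 for genotype in early tumours (12.7%), 1 for onset in Bptf+/Δ (7.83%) and 1 for onset in Bptf+/+ tumours (8.25%). The genotype difference in the log2 ratio of Nfkb2 to Nfkb1 was 0.852 without the 3 libraries led by another transcript and 0.942 to 1.324 on leaving out each library. Where the call was lost it ran from 0.942 to 1.156. That of Rel to Rela ran from -0.599 to -0.377, passing at -0.599 and -0.598. The number of pairs that passed for Pearson's r was 20 over all tumours, 12 within Bptf+/+ and 1 within Bptf+/Δ tumours.

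Among differences larger than their own SE, 7 changed sign under an alternative. With the non-tumour score these were Rela (-0.063) and Traf1 (-0.119) for genotype averaged over onset and Traf1 in early tumours (-0.097). With the mature B score they were Nfkb1 (-0.011) and Nfkb2 (-0.064) for onset in Bptf+/+ tumours. With the immediate early score it was Rela for genotype averaged over onset (-0.035), and with log2 weeks in place of the onset class it was Relb for onset (0.068). The cause was not tested. Other settings and leaving out single libraries changed no other sign of this kind. The number of genes called over all genes varied more. For genotype in early tumours it was 0 with limma, 400 with DESeq2 and 110 with array weights, and for onset averaged over genotype it was 87 with limma, 505 with edgeR and 1855 with DESeq2. Groups held 4 to 6 tumours, and 1 early Bptf+/Δ tumour was low in B cell markers.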
